A study of Homo sapiens with 12 samples.

Results

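The genes described here are 53 genes of mitosis and of the G2/M transition, given by symbol and each matched to 1 Ensembl identifier among the 63241 genes of every count table. Of these, 52 passed the filter on low counts. They belong to 9 roles: kinases, phosphatases and cyclins of mitotic entry, the spindle checkpoint, the chromosomal passenger complex, the kinetochore, kinesins, spindle assembly and cytokinesis, anaphase, condensin and chromosome structure, and FOXM1 with PIMREG. The 12 libraries hold poly-A selected RNA of MDA-PCa-2b, an established line of human prostate cancer cells. The libraries form 4 groups of 3, labelled NT, KD1, KD2 and KDR. KD1 and KD2 are labelled as 2 separate knock downs of DHODH, the mitochondrial enzyme of pyrimidine synthesis, and KDR as knock down 2 after rescue. No treatment, time or clone number is given, the meaning of NT and the kind of knock down construct are not stated, and the growth protocol names MDA-PCa-2a beside MDA-PCa-2b. The labels do not say whether libraries of a group came from separate cultures, so a p-value here speaks of the spread among libraries, and that spread may be technical.

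Cells enter mitosis when CDK1, bound to a B-type cyclin, is switched on by CDC25 phosphatases. Chromosomes are then condensed, attached to the spindle through kinetochores under the watch of the spindle checkpoint, and parted once the anaphase-promoting complex (APC/C) and its activator CDC20 mark securin and cyclin B for destruction. Most of these genes are transcribed late in the cell cycle, under the MuvB complex with B-MYB and FOXM1, through promoters that hold CCAAT boxes, which bind NF-Y, and a cell cycle genes homology region (CHR), which binds MuvB. In a cell population their RNA therefore moves with the share of cells in G2 and mitosis. Bulk RNA does not tell more dividing cells apart from more of these RNAs per cell.

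Library totals ran from 23786288 to 38240369 counts. DHODH RNA, the target of the knock downs, stood at 9.19, 13.4 and 8.95 CPM (counts per 1e6 counts, scaled by TMM) in NT, 11.0, 10.4 and 9.63 in KD1, 11.4, 13.0 and 14.9 in KD2 and 18.9, 19.2 and 17.5 in KDR. The test did not call it lower than in NT in the libraries labelled KD1 (log2 fold change -0.03, adjusted p = 0.97) or KD2 (0.31, adjusted p = 0.097), and it was higher in KDR (0.82, adjusted p = 0.00010; edgeR, Benjamini-Hochberg). NT replicate 2 stood apart from the other NT libraries: the biological coefficient of variation was 15.7% over 3 NT libraries and 8.57% without it, against 5.52% to 7.16% in the other groups. The 8 prostate epithelium markers were present in every library, with KLK3 (prostate-specific antigen) at 6184 CPM or more. Their summed level was 8469 to 8689 CPM in KD2 and 11718 to 14834 CPM in the other groups, 7 of the 8 were called lower in KD2 than in NT, and their part in the results below was not tested. Fibroblast markers (6 genes) summed to 1.84 to 5.12 CPM over all libraries and to 1.84 to 2.78 CPM in KD2, with COL1A1 the highest of them in every library. Immune markers (5 genes) reached at most 0.264 CPM and endothelial markers (4 genes) at most 0.937 CPM, with CD3E, CD68 and CDH5 at 0 in all 12 libraries.

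Promoter windows of RefSeq (GRCh38.p14, 250 bases before to 50 bases after the start site, 300 bases in all) were at hand for 44 of the 53 genes. The stretch before the start site is printed for 4 of them: CCNB1, PLK1, CDC20 and CDC25B. PLK1 and CDC20 match both the CCAAT box and the CHR, and CCNB1 matches the CCAAT box alone. CDC25B has neither motif and was chosen after its values were seen. Capitals mark matches to the CCAAT box and to the CHR. All 4 lie on the + strand of their chromosome (CCNB1 chr5:69166900-69167149, PLK1 chr16:23678639-23678888, CDC20 chr1:43358731-43358980, CDC25B chr20:3786701-3786950).
CCNB1: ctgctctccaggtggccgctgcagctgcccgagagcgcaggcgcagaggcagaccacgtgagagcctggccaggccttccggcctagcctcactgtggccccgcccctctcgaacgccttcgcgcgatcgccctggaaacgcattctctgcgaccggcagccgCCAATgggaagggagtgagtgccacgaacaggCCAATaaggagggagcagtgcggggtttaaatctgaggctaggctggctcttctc
PLK1: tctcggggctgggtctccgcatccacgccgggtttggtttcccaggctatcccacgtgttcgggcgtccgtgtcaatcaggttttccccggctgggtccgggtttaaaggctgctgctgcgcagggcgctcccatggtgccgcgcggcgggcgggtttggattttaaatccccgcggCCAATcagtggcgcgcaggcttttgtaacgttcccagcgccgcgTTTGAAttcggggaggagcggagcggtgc
CDC20: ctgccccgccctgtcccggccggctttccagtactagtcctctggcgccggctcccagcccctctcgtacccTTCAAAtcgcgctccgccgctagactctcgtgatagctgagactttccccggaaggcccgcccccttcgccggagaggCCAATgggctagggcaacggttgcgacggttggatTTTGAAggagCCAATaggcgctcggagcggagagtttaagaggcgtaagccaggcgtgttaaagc
CDC25B: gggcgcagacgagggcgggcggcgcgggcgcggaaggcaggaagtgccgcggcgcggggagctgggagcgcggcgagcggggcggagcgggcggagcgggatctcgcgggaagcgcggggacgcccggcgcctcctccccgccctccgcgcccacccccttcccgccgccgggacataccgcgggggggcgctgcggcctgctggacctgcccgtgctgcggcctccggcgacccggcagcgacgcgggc
The CCNB1 promoter holds 2 CCAAT boxes, centred at -84.5 and -52.5 bases from the start site (negative is before it), and no match to the CHR. PLK1 holds 1 CCAAT box (centre at -70.5) and 1 CHR (-26), and CDC20 holds 2 of each. CDC25B has no match to either in 300 bases, which says only that these letters are not in this window.

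The CCAAT box was searched as CCAAT and the CHR as TTTGAA or TTCGAA, on both strands. No motif contains the letters of another. Of the 44 promoters, 32 (72.7%) held at least 1 CCAAT box, beside 35.7% of all 27305 promoter windows. A CHR was found in 34 (77.3%), beside 16.6% of all windows. Both motifs stood together in 26 (59.1%), beside 6.58%, and 2 or more CCAAT boxes in 45.5%, beside 11.3%. Neither motif was found in 4 (9.09%), CDC25B, CDC25C, CENPE and KIF2C, beside 54.3% of all windows. The CHR matches also lay closer to the start: their median centre was at -25 among the 44 genes and at -124 over all windows. For the CCAAT box these medians were -84.5 and -94.5. An SP1 box (GGGCGG) was in 72.7% of the 44 windows and 44.6% of all, and an E2F site (TTTGGCGC or TTTCGCGC) in 4.55% and 1.18%. SP1 boxes lay farther from the start in the 44 windows, with a median centre at -112 against -77 over all windows. The E2F site had only 2 matches in the 44 windows. These are matches of letters, not sites shown to be bound. For every gene, lack of a match says only that the letters searched are not in its window.

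**Figure D1:**
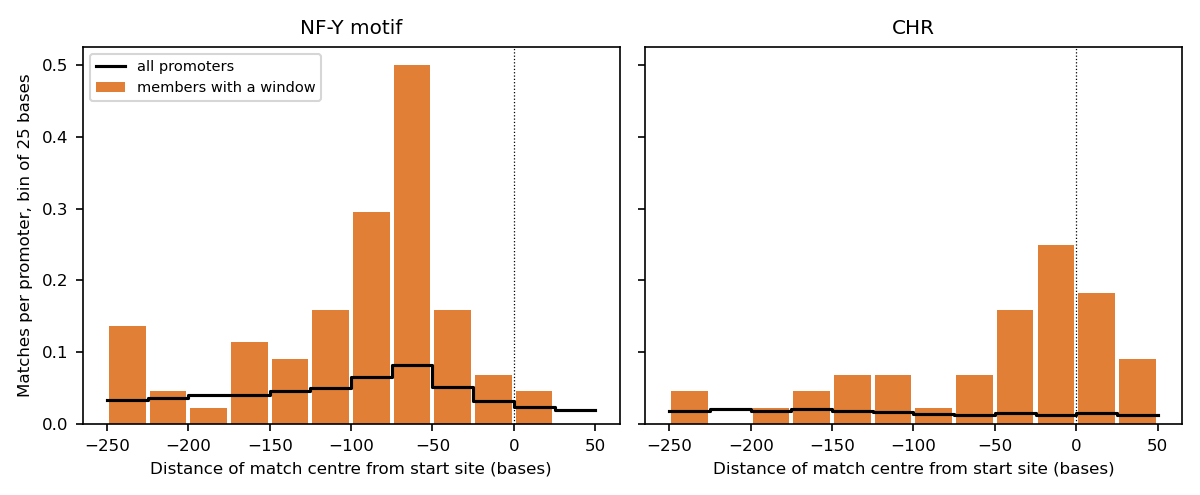
Matches per promoter of the CCAAT box (left, titled NF-Y motif) and the CHR (right) in bins of 25 bases (y axis) by distance of the match centre from the start site in bases (x axis). Bars are the 44 mitosis and G2/M genes with a promoter window and the black line is all 27305 windows; 48.9% of the genes' CHR matches and 27.7% of all CHR matches lie within 100 bases before the start.

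The mitosis and G2/M genes were at about the same level in NT and KD1, highest in KD2, and between these in KDR. Summed over the 53 genes, the level was 733 ± 29.8 CPM in NT (mean ± SD, n = 3), 744 ± 12.8 in KD1, 1931 ± 29.5 in KD2 and 1075 ± 11.9 in KDR. The ranges of the 3 libraries were 699 to 755, 734 to 758, 1899 to 1957 and 1062 to 1084 CPM, so that NT and KD1 overlapped and KD2 and KDR stood clear of them and of each other. In KD2 against NT, 50 of the 52 tested genes were higher and none lower at an adjusted p under 0.05 (edgeR quasi-likelihood test, Benjamini-Hochberg over 19373 genes), where 17.8% of all genes tested were called higher and 18.2% lower. Their median log2 fold change was 1.74, or 3.34-fold, and that of all genes tested was -0.01. Differences ran from 0.10 for CDC25B to 2.46 for SPC25, 47 genes had a log2 fold change of at least 1 (6.65% of all genes tested) and 11 of at least 2. All 3 KD2 libraries lay above all 3 NT libraries for 51 of 52 genes, against 21.5% of all genes. The 47 and the 51 include PRC1, a gene of few counts that reached the filter's minimum in no NT library. Without NT replicate 2, 51 genes were called higher and the median was again 1.74. Against KD1, KD2 was higher for 50 of 52 genes with a median of 1.72 (all genes tested: 17.9% called higher); CDC25B and PRC1 were not called.

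**Figure D2:**
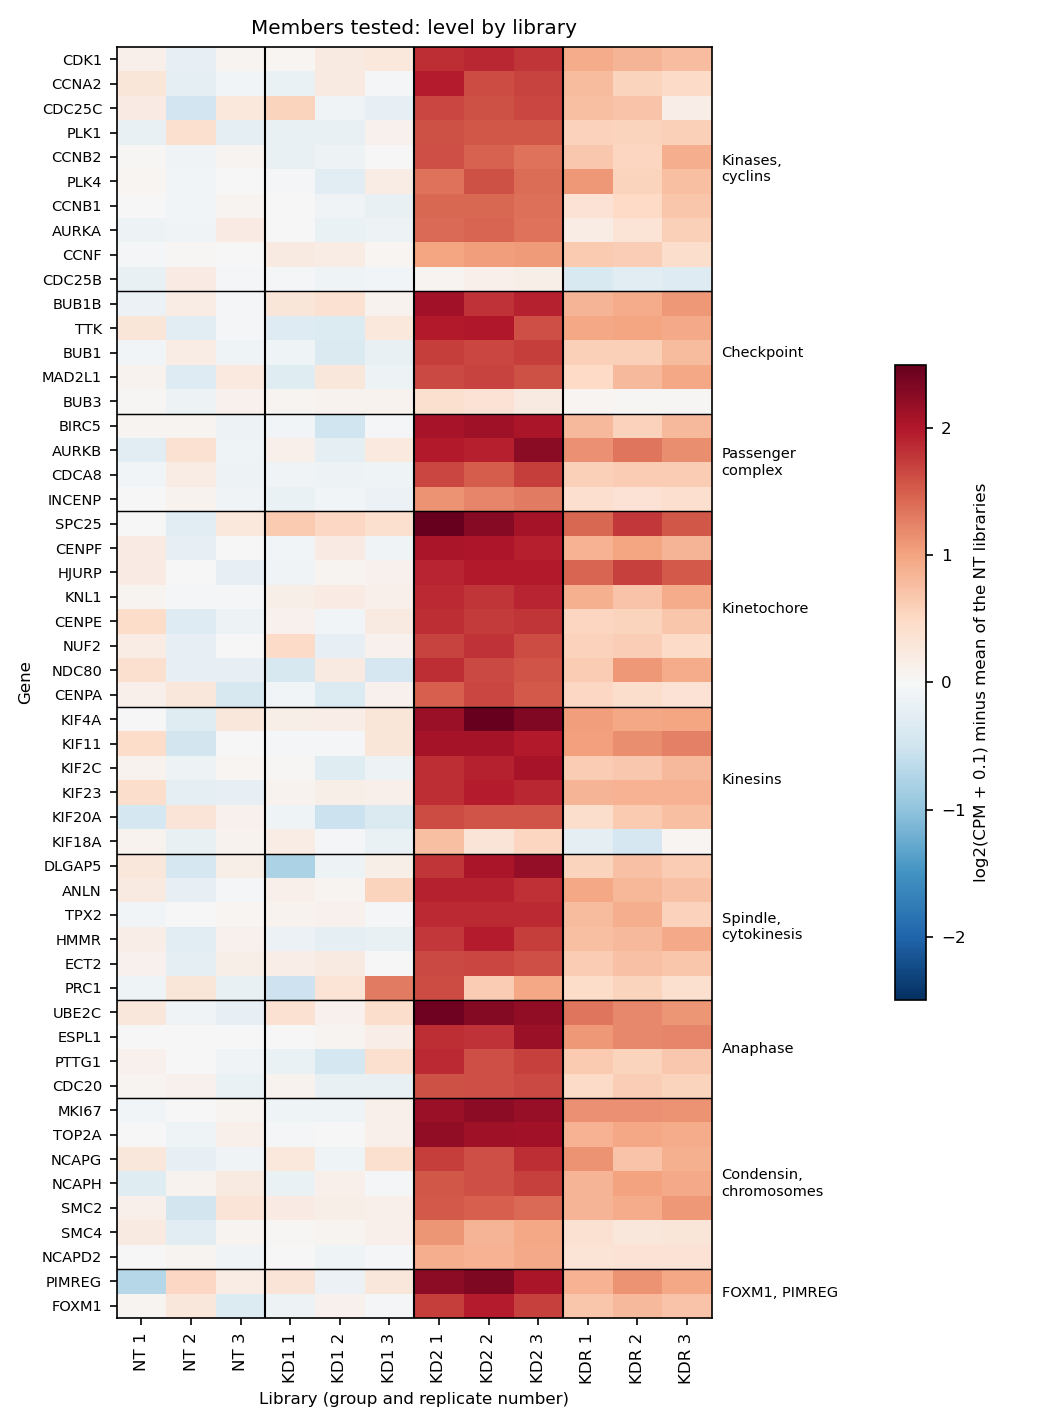
Level of the 52 tested genes (rows, grouped by role) in each of the 12 libraries (columns, by group and replicate number), as log2(CPM + 0.1) minus the mean of the 3 NT libraries; red is higher and blue lower, on a scale from -2.5 to 2.5. The KD1 columns are close to those of NT, KD2 is red in nearly every row, and KDR is paler; CDC25B and BUB3 stay pale throughout.

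Among kinases, phosphatases and cyclins of mitotic entry, 9 of 10 genes were higher in KD2 than in NT, with a median log2 fold change of 1.48. Over all genes tested 17.8% were called higher and 18.2% lower, the shares beside which this count and those of the other roles stand. CDK1 (ENSG00000170312, GRCh38 chromosome 10, 60778331 to 60794852) is the kinase that drives mitotic entry. Its level was 15.6, 12.3 and 14.9 CPM in NT, 14.8, 16.6 and 17.02 in KD1, 51.7, 52.8 and 49.0 in KD2 and 27.0, 25.7 and 24.4 in KDR. Every KD2 library was above every KDR library, and every KDR library above all those of NT and KD1. The log2 fold change was 1.84 in KD2 against NT (95% interval 1.64 to 2.04, adjusted p = 6.3e-13) and -0.99 in KDR against KD2 (95% interval -1.19 to -0.80, adjusted p = 1.5e-08).

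CCNB1 (ENSG00000134057, GRCh38 chromosome 5, 69167135 to 69178245), the cyclin B1 that activates CDK1, was at 18.2, 17.3 and 19.2 CPM in NT, 18.4, 17.2 and 16.1 in KD1, 49.6, 49.2 and 47.2 in KD2 and 23.3, 25.7 and 29.6 in KDR. KDR libraries lay above NT and below KD2 without overlap. CCNB1 rose by 1.42 (log2) in KD2 against NT (95% interval 1.22 to 1.61, adjusted p = 3.9e-11) and differed by -0.90 in KDR against KD2 (adjusted p = 7.1e-08). PLK1 (ENSG00000166851, GRCh38 chromosome 16, 23677656 to 23690367), the polo-like kinase of centrosome maturation and mitotic exit, measured 7.36, 11.1 and 7.09 CPM in NT, 7.32, 7.36 and 9.03 in KD1, 25.3, 24.5 and 24.8 in KD2 and 12.5, 12.3 and 12.7 in KDR. Its highest NT value is that of replicate 2 and lay below all KDR libraries. In KD2 against NT the log2 fold change of PLK1 was 1.54 (95% interval 1.25 to 1.83, adjusted p = 7.2e-09).

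AURKA, the Aurora kinase of centrosomes and spindle poles, was at 6.77, 6.94 and 8.46 CPM in NT, 7.29, 6.53 and 6.77 in KD1, 19.8, 20.3 and 18.9 in KD2 and 8.36, 9.32 and 11.2 in KDR. It was higher in KD2 (1.42, adjusted p = 8.5e-09), while 1 KDR library fell within the NT range. The call in KDR against NT (0.38, adjusted p = 0.036) was lost without NT replicate 1 or 2 or without KDR replicate 2 or 3, with differences of 0.26 to 0.40 and adjusted p of 0.067 to 0.22, and in a fit of only the groups compared or without the filter on low counts. CCNA2 (cyclin A2), CCNB2 (cyclin B2), CDC25C (the other CDC25 phosphatase of the set) and PLK4 (the kinase of centriole duplication) rose by 1.76, 1.503, 1.65 and 1.46 in KD2 against NT. CCNF, cyclin F, the substrate receptor of a ubiquitin ligase, showed a smaller rise of 1.03.

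CDC25B, the phosphatase that starts CDK1 activation, did not follow the others. Its level was 35.1, 46.5 and 39.6 CPM in NT, 38.8, 37.1 and 38.3 in KD1, 41.9, 43.8 and 44.3 in KD2 and 30.9, 33.0 and 32.1 in KDR. NT spanned all KD2 values, and KDR lay below every other library. The log2 fold change was 0.10 in KD2 against NT (95% interval -0.08 to 0.28, adjusted p = 0.41), -0.34 in KDR against NT (adjusted p = 0.0061) and -0.44 in KDR against KD2 (adjusted p = 0.00046). Its highest NT value came from replicate 2, without which CDC25B was called higher in KD2 than in NT (0.22, adjusted p = 0.025).

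**Figure D3:**
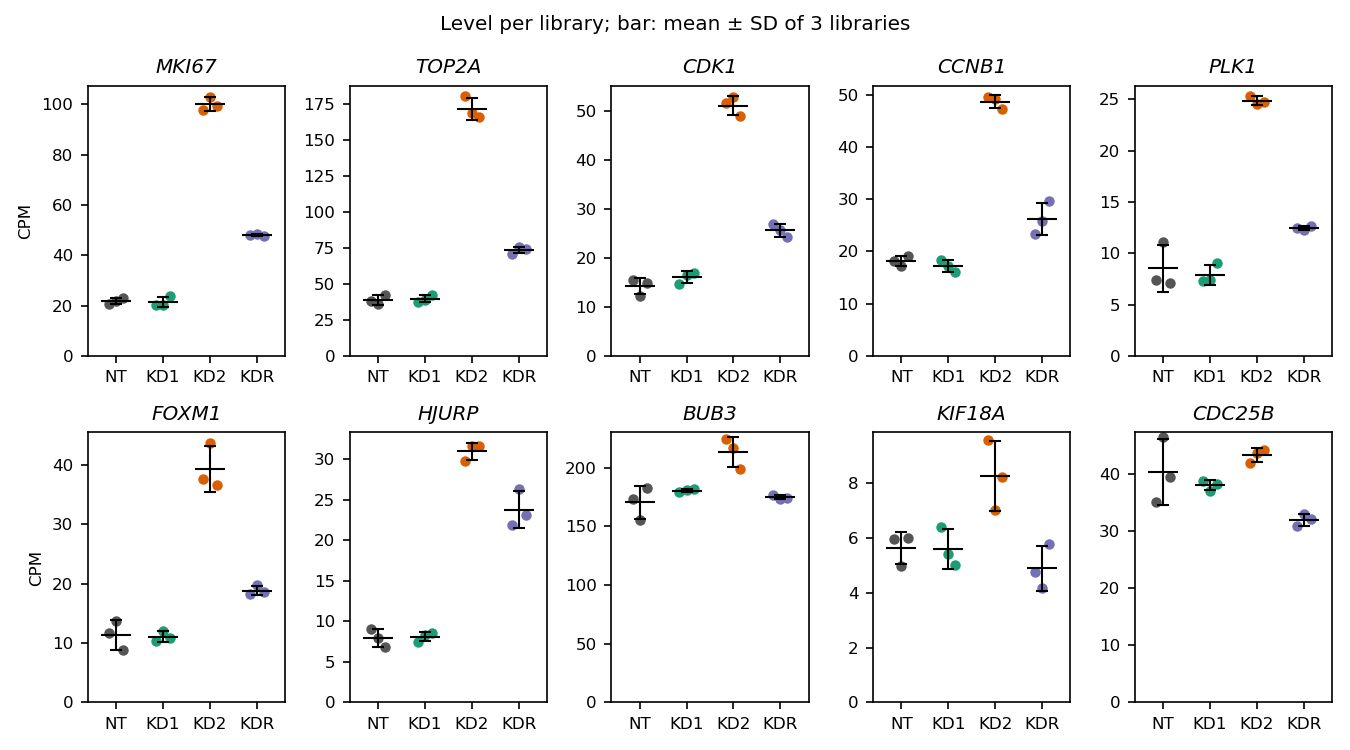
Level in CPM (y axis, from 0, own scale per panel) of 10 genes by group (x axis); points are the 3 libraries of a group, bars their mean and whiskers ± SD. MKI67, TOP2A, CDK1, CCNB1, PLK1 and FOXM1 share 1 shape, highest in KD2 and lower in KDR; HJURP stays high in KDR, BUB3 and KIF18A have smaller differences, and CDC25B is lowest in KDR.

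All 5 spindle checkpoint genes were higher in KD2 than in NT, with a median of 1.72. BUB1B encodes BubR1, a part of the complex that holds back CDC20 until all chromosomes are attached. It measured 4.41, 5.55 and 4.801 CPM in NT, 6.09, 6.45 and 5.21 in KD1, 21.3, 17.4 and 18.8 in KD2 and 8.89, 9.41 and 10.5 in KDR, with no overlap between NT, KDR and KD2. The difference between KD2 and NT was 1.96 (95% interval 1.68 to 2.25, adjusted p = 1.0e-10). BUB1 (the kinase that marks kinetochores), TTK (the MPS1 kinase that starts the checkpoint signal) and MAD2L1 (MAD2, which binds CDC20) rose by 1.72, 1.88 and 1.64. BUB3, which recruits BUB1 and BubR1 and is abundant outside mitosis too, moved least: 173, 155 and 183 CPM in NT, 179, 181 and 182 in KD1, 224, 217 and 199 in KD2 and 177, 174 and 174 in KDR. Its difference was 0.33 in KD2 against NT (adjusted p = 0.00018) and 0.04 in KDR against NT (95% interval -0.09 to 0.17, adjusted p = 0.70).

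The chromosomal passenger complex, which corrects faulty attachments, had all 4 genes higher in KD2, with a median of 1.85. BIRC5 (survivin, which docks the complex to centromeres) was at 11.4, 11.4 and 9.98 CPM in NT, 10.4, 7.74 and 10.5 in KD1, 46.0, 47.9 and 45.0 in KD2 and 19.2, 16.2 and 19.2 in KDR, a log2 difference of 2.08 between KD2 and NT (adjusted p = 9.9e-13). INCENP, its scaffold, had the smallest rise: 25.2, 27.2 and 24.1 CPM in NT, 22.8, 24.2 and 23.0 in KD1, 55.4, 59.3 and 62.5 in KD2 and 34.2, 32.6 and 33.9 in KDR, or 1.21 (adjusted p = 3.2e-11). Both genes separated NT, KDR and KD2 without overlap. The kinase AURKB and the borealin gene CDCA8 rose by 2.07 and 1.64.

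Kinetochore genes were all higher in KD2 (8 of 8, median 1.81). SPC25, a subunit of the NDC80 complex that grips microtubules, had the largest log2 fold change of the 52 genes, at a low level: 1.12, 0.925 and 1.37 CPM in NT, 1.84, 1.66 and 1.51 in KD1, 7.69, 5.87 and 5.09 in KD2 and 3.22, 4.06 and 3.51 in KDR. No group overlapped another, and KD1 stood above NT. The difference of SPC25 was 2.46 in KD2 against NT (95% interval 1.97 to 2.95, adjusted p = 1.8e-08) and 0.55 in KD1 against NT (adjusted p = 0.79). Its fall in KDR against KD2 (-0.79, adjusted p = 0.0055) was not called without KD2 replicate 1 (-0.61, adjusted p = 0.064).

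CENPA, the histone H3 variant that marks centromeres, had the smallest rise of the 8: 3.26, 3.64 and 2.25 CPM in NT, 2.87, 2.33 and 3.23 in KD1, 8.57, 9.72 and 8.89 in KD2 and 4.33, 4.09 and 3.88 in KDR, a difference of 1.56 in KD2 against NT (adjusted p = 5.4e-07). KDR was above all NT libraries but not called (0.42, adjusted p = 0.11). HJURP, the chaperone that loads CENPA, kept a high level in KDR: 9.10, 8.00 and 6.86 CPM in NT, 7.50, 8.36 and 8.51 in KD1, 29.8, 31.6 and 31.6 in KD2 and 22.0, 26.3 and 23.2 in KDR. The differences of HJURP from NT were 1.95 in KD2 and 1.57 in KDR (95% interval 1.33 to 1.81, adjusted p = 3.9e-10). The difference between KDR and KD2 was -0.38 (adjusted p = 0.0073), a call lost without KDR replicate 1 (-0.33, adjusted p = 0.054). NDC80 and NUF2 (further subunits of the NDC80 complex), KNL1 (the scaffold that binds BUB1), CENPE (a kinetochore motor) and CENPF (a corona protein) rose by 1.68, 1.73, 1.86, 1.76 and 2.01 in KD2 against NT.

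All 6 kinesins were higher in KD2 than in NT, with a median of 1.92. KIF4A, a chromosome-bound motor that also sets the length of the anaphase midzone, had the largest difference: 6.46, 5.16 and 7.77 CPM in NT, 7.11, 7.19 and 7.94 in KD1, 28.9, 37.1 and 32.3 in KD2 and 13.2, 12.6 and 12.7 in KDR, or 2.35 (adjusted p = 2.4e-12). KIF18A, which damps chromosome movements at the metaphase plate, had the smallest: 5.96, 4.96 and 5.98 CPM in NT, 6.40, 5.41 and 5.00 in KD1, 9.56, 7.01 and 8.22 in KD2 and 4.74, 4.16 and 5.78 in KDR. Its KD2 libraries lay above all others, and KDR and NT overlapped. The difference in KD2 against NT (0.56, adjusted p = 0.012) was not called without KD2 replicate 1 (0.43, adjusted p = 0.090), and in KDR against NT it was -0.21 (adjusted p = 0.42). KIF11 (the Eg5 motor that pushes spindle poles apart), KIF2C (MCAK, which shortens microtubules), KIF23 (the motor of centralspindlin) and KIF20A (which carries the passenger complex to the midzone) rose by 2.00, 1.96, 1.87 and 1.57.

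Of the 7 genes of spindle assembly and cytokinesis, 6 were tested and 5 were higher in KD2, with a median of 1.86. The 6 include PRC1, described below, which was not called. DLGAP5 (HURP, which stabilises kinetochore fibres) was at 3.91, 2.35 and 3.54 CPM in NT, 1.80, 2.91 and 3.57 in KD1, 11.2, 13.4 and 15.1 in KD2 and 4.74, 5.38 and 5.05 in KDR. Its difference was 2.01 in KD2 against NT (adjusted p = 6.9e-08) and had the largest fall of the 52 genes in KDR against KD2 (-1.39, adjusted p = 1.1e-05). Its call in KDR against NT (0.63, adjusted p = 0.033) was lost without NT replicate 2 or any 1 of the KDR libraries, with differences of 0.43 to 0.67 and adjusted p of 0.055 to 0.12. TPX2 (which activates AURKA on the spindle), ANLN (anillin of the contractile ring), HMMR (a spindle-pole protein) and ECT2 (the exchange factor that switches on RhoA at the cleavage plane) rose by 1.87, 1.88, 1.84 and 1.64.

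The remaining pair, PRC1 and NUSAP1, could hardly be counted. PRC1, the crosslinker of midzone microtubules, held 2 to 23 counts per library and NUSAP1, a spindle protein, 0 to 9. In the annotation used for counting, other genes cover 61.9% of the exon bases of PRC1 and 86.8% of those of NUSAP1, and the counter leaves out reads that fall in more than 1 gene by default. PRC1 reached the filter's minimum of 0.332 CPM in 2 KD2 libraries and in no NT library. Its level was 0.124, 0.198 and 0.114 CPM in NT, 0.0708, 0.208 and 0.495 in KD1, 0.653, 0.278 and 0.376 in KD2 and 0.234, 0.258 and 0.219 in KDR, and it was not called (1.56 in KD2 against NT, 95% interval 0.01 to 3.11, adjusted p = 0.11), and NUSAP1 did not pass. The other 51 genes reached that minimum in all 3 NT libraries. Among those, NCAPG (33.7% of exon bases), SMC4 (22.0%) and FOXM1 (15.9%) overlap other genes most, and their levels may be too low for the same reason. Strand was not used, so reads from opposite-strand neighbours are not told apart.

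All 4 genes of ubiquitination and anaphase were higher in KD2, with a median of 1.85. UBE2C, the ubiquitin-conjugating enzyme of the APC/C, was at 6.30, 4.86 and 4.46 CPM in NT, 6.76, 5.57 and 7.05 in KD1, 28.1, 25.8 and 24.4 in KD2 and 13.2, 12.0 and 11.1 in KDR. That is 2.32 in KD2 against NT (adjusted p = 5.3e-12) and 1.21 in KDR against NT (adjusted p = 5.6e-07). CDC20, which activates the APC/C, had the smallest rise of the 4: 11.9, 12.4 and 10.1 CPM in NT, 12.2, 10.1 and 10.0 in KD1, 34.9, 35.2 and 36.3 in KD2 and 16.1, 17.6 and 16.9 in KDR, or 1.62 (adjusted p = 2.4e-11). The securin gene PTTG1 and the separase gene ESPL1, the inhibitor and the protease that cuts cohesin, rose by 1.74 and 1.96. UBE2C, KIF4A, PIMREG and PTTG1 are among the genes with copies elsewhere in the genome, as are AURKA, MAD2L1, CDC20 and others. Reads that map to both a gene and its copy are not counted by default. Over 12 libraries the copy with the most counts held 119 for UBE2C (UBE2CP5, beside 4507 for the gene), 78 for KIF4A (KIF4B, beside 5300) and 62 for PIMREG (PIMREGP1, beside 1506).

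Condensin and chromosome structure genes were all higher in KD2 (7 of 7, median 1.63). TOP2A (ENSG00000131747, GRCh38 chromosome 17, 40388525 to 40417896), the topoisomerase that untangles sister chromatids, was at 38.2, 35.7 and 42.2 CPM in NT, 37.7, 38.7 and 42.4 in KD1, 179.9, 168 and 166 in KD2 and 70.9, 75.2 and 73.9 in KDR. Its log2 fold change was 2.15 in KD2 against NT (95% interval 2.00 to 2.30, adjusted p = 2.2e-16), the smallest adjusted p of the 52 genes, and -1.22 in KDR against KD2 (adjusted p = 3.3e-12). MKI67 (ENSG00000148773, GRCh38 chromosome 10, 128096659 to 128126423) encodes Ki-67, the chromosome coat protein used as a marker of dividing cells. It measured 20.7, 21.8 and 22.9 CPM in NT, 20.2, 20.3 and 23.8 in KD1, 97.7, 103 and 99.2 in KD2 and 48.1, 48.3 and 47.5 in KDR. Ki-67 RNA in KDR was above all NT and KD1 values and below all KD2 values, with differences of 2.20 (KD2 against NT, 95% interval 2.03 to 2.36, adjusted p = 5.5e-16) and 1.14 (KDR against NT, 95% interval 0.98 to 1.30, adjusted p = 1.7e-10).

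The 5 condensin subunits had smaller log2 fold changes than TOP2A and MKI67, a difference that was not tested. NCAPD2, a subunit of condensin I, was at 54.4, 56.9 and 50.6 CPM in NT, 53.7, 49.9 and 52.1 in KD1, 102, 98.8 and 104 in KD2 and 68.0, 69.0 and 69.2 in KDR, a difference of 0.91 between KD2 and NT (adjusted p = 1.4e-10). SMC2, an ATPase shared by condensin I and II, stayed relatively high in KDR: 17.9, 11.9 and 20.5 CPM in NT, 19.0, 18.0 and 17.9 in KD1, 47.7, 46.3 and 43.7 in KD2 and 29.4, 31.0 and 34.7 in KDR, or 1.46 in KD2 and 0.92 in KDR against NT (adjusted p = 4.5e-09 and 8.4e-06). Its partner SMC4 rose by 0.96, and the condensin I subunits NCAPG and NCAPH by 1.74 and 1.63. Per length (TPM, counts per exon base scaled to 1e6 in each library), subunits of this complex were unequal in both groups: NCAPD2 had 33.7 TPM in NT and 62.4 in KD2, SMC4 16.3 and 31.1, SMC2 10.6 and 28.2, NCAPH 4.07 and 12.3, and NCAPG 4.00 and 13.1. Other genes cover 33.7% of the exon bases of NCAPG and 22.0% of those of SMC4, but none of SMC2 or NCAPH. The NCAPG and SMC4 values may therefore be too low, and the part of counting in these inequalities was not tested.

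FOXM1 (ENSG00000111206, GRCh38 chromosome 12, 2857680 to 2877174), a transcription factor of G2/M genes that is itself one, was at 11.7, 13.7 and 8.76 CPM in NT, 10.3, 12.1 and 10.8 in KD1, 37.5, 43.7 and 36.7 in KD2 and 18.2, 19.7 and 18.5 in KDR. No library of KD2 or KDR fell within the range of NT. The difference of FOXM1 was 1.78 in KD2 against NT (95% interval 1.52 to 2.04, adjusted p = 1.0e-10) and 0.72 in KDR against NT (adjusted p = 0.00014). PIMREG, a nuclear protein of dividing cells, was at 1.09, 2.71 and 2.13 CPM in NT, 2.34, 1.66 and 2.26 in KD1, 9.05, 9.79 and 7.93 in KD2 and 3.48, 4.16 and 3.69 in KDR, and rose by 2.18 in KD2 (adjusted p = 1.6e-07).

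On the per-length scale the order of the levels changed between NT and KD2. In NT the highest levels were those of BUB3 (84.5 TPM), CDC25B (41.7), NCAPD2 (33.7), CCNB1 (30.3) and TOP2A (24.6). In KD2 the order was TOP2A (107 TPM), BUB3 (104), UBE2C (80.7), CCNB1 (79.5) and TPX2 (72.5), and CDC25B was in place 12. TOP2A and BUB3 in KD2 were 107 ± 4.98 and 104 ± 6.74 TPM (mean ± SD, n = 3), a gap smaller than the spread between libraries. The same holds for UBE2C (80.7 ± 6.12 TPM) and CCNB1 (79.5 ± 2.52 TPM) in KD2.

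KD1 did not differ from NT by the test for any of the 52 genes: 0 were called by edgeR and 0 by DESeq2, as for all genes in edgeR (0%), and 4 had an unadjusted p under 0.05 (all genes: 6.12%). The 4 were SPC25, ANLN (signed difference 0.27), UBE2C (0.31) and KIF20A (-0.36), with the smallest adjusted p of the 52 genes at 0.79. The median log2 fold change in KD1 against NT was 0.00, and that of all genes tested -0.01. For 44 of 52 genes the 95% interval lay within 1.5-fold either way, beside 58.5% of all genes tested, so that larger changes lie outside the intervals of those 44. The 8 with wider intervals were CDC25C, NDC80, SPC25, KIF20A, PRC1, DLGAP5, UBE2C and PIMREG. CCNF, SPC25 and KNL1 had all 3 KD1 libraries above NT (4.41% of all genes did) and BUB1 had all 3 below (4.99%).

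In KDR, the rescue of knock down 2, 51 of 52 genes were lower than in KD2 and none higher (all genes tested: 17.1% lower, 15.3% higher), with a median log2 fold change of -0.997 (all genes: 0.02). Falls ran from -1.39 for DLGAP5 to -0.29 for BUB3, and for all 52 genes every KDR library lay below every KD2 library (25.4% of all genes). The 52 include PRC1, whose few counts are described above. Set against NT, 46 genes were higher in KDR (all genes: 13%) and 1, CDC25B, lower (14.5%), with a median of 0.73, or 1.66-fold (all genes: 0.01). CDC25C (0.55, 95% interval 0.07 to 1.03), CENPA, BUB3, KIF18A and PRC1 were not called. The comparisons of KDR and KD2 with NT share the NT libraries, and the one of KDR with KD2 shares libraries with both. By role, the median difference of KDR from NT was 0.56 for kinases and cyclins, 0.76 for the checkpoint, 0.68 for the passenger complex, 0.86 for the kinetochore, 0.77 for kinesins, 0.73 for spindle and cytokinesis, 0.91 for anaphase and 0.92 for condensin and chromosome structure. The group means had the order KD2, KDR, KD1, NT in 25 genes and KD2, KDR, NT, KD1 in 23.

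**Figure D4:**
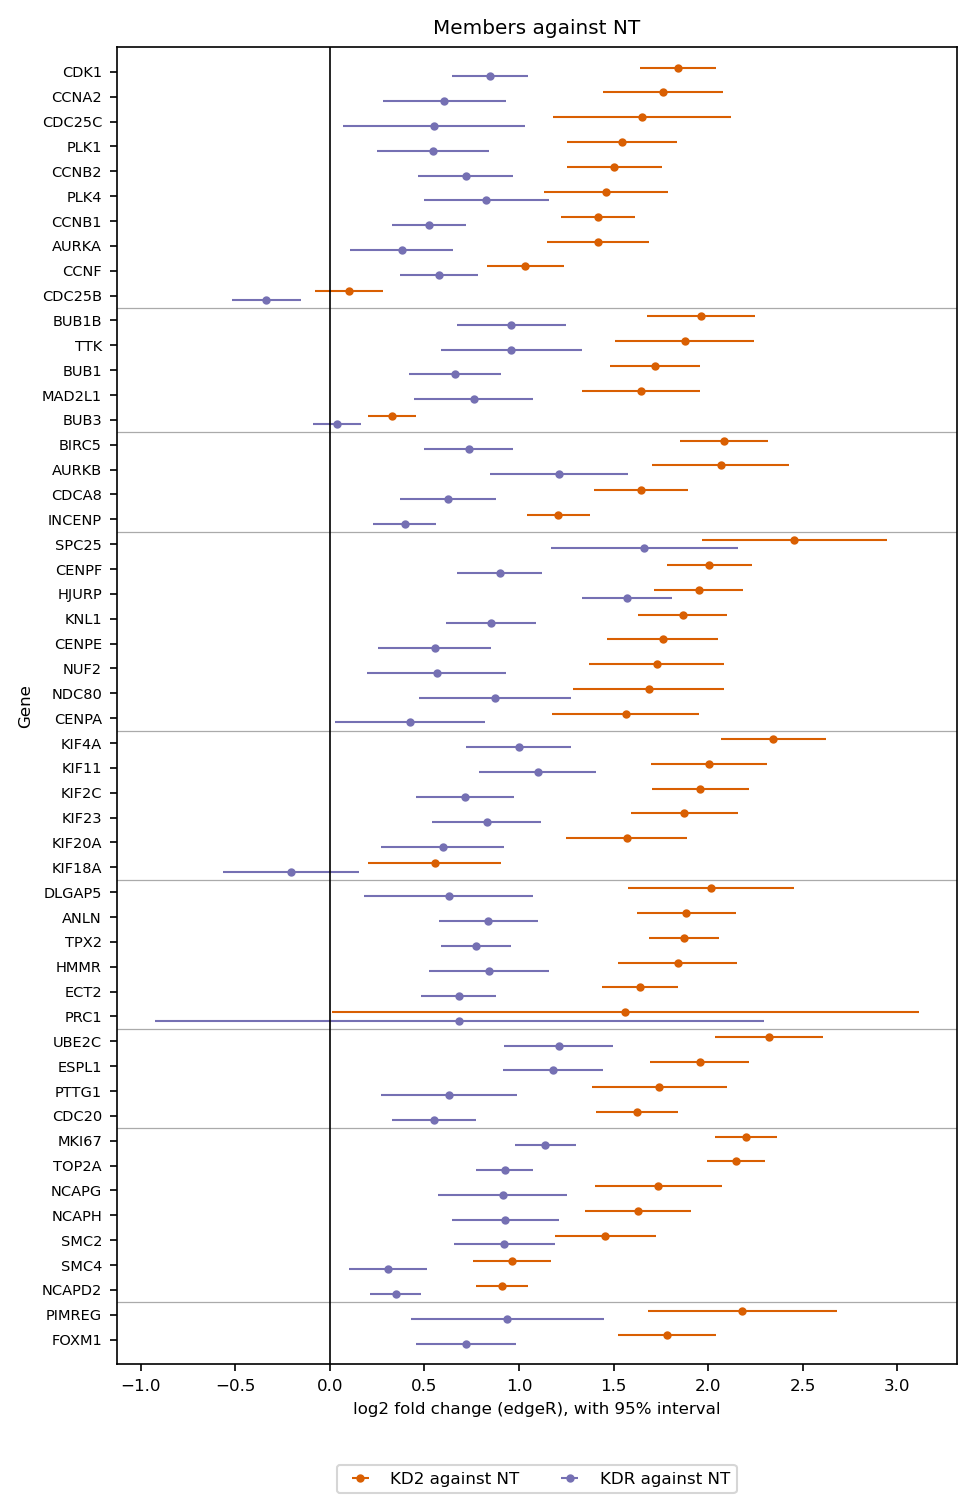
Log2 fold change with its 95% interval (x axis) of the 52 tested genes (y axis, grouped by role) in KD2 against NT (orange) and KDR against NT (purple). The orange points run from 0.10 for CDC25B to 2.46 for SPC25, and the purple points lie to the left of them in every row; PRC1 has the widest intervals.

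Further genes of mitosis, 116 in 7 lists, were set beside these, and 115 were tested. In KD2 against NT, 74 were higher and 7 lower, with a median of 0.43; over all genes tested 17.8% were called higher and 18.2% lower, the shares beside which each list's counts stand. Of 26 further genes of the spindle and cytokinesis, 23 were higher and none lower (median 1.596). KIF14, a cytokinesis motor, rose by 3.27 (4.99 ± 1.72 CPM in NT, 47.7 ± 2.07 in KD2, 8.54 ± 0.496 in KDR; mean ± SD, n = 3). KIF3A, a kinesin-2 motor best known for transport in cilia, rose by 2.80 (50.4 ± 13.2 CPM in NT, 350.4 ± 14.96 in KD2 and 56.3 ± 2.85 in KDR). KIFC1, a minus-end motor that clusters centrosomes, rose by 1.91.

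Among 31 tested genes of the kinetochore and centromere, 25 were higher and none lower (median 0.76), among them CENPU (1.75), ZWINT (1.58), which binds KNL1, and KNTC1 (0.99) of the complex that brings dynein to kinetochores. Of the APC/C, the checkpoint's target, 5 of 17 genes were higher and 3 lower, with a median of -0.10; the share lower is near that of all genes tested (18.2%). FBXO5 (EMI1, an inhibitor of the APC/C), ANAPC1 (its largest subunit) and UBE2S (which extends ubiquitin chains) rose by 1.13, 0.52 and 0.51. Cohesin and its regulators had 7 of 15 higher and 1 lower (median 0.16), with 1.83 for CDCA5 (sororin, which protects cohesion), 1.83 for ESCO2 (which acetylates cohesin in S phase) and 0.60 for the ring subunit SMC3. The 3 subunits of condensin II alone, NCAPG2, NCAPD3 and NCAPH2, rose by 1.28, 0.40 and 0.28.

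The list titled brakes of mitotic entry held 10 genes: WEE1, PKMYT1, CHEK1, MASTL, ENSA, ARPP19, PPP2R2A, PPP2R2D, CDC14A and CDC14B. It is mixed, since MASTL, ENSA and ARPP19 favour entry rather than hold it back. Of the 10 genes, 5 were higher and 2 lower (median 0.29), the latter again near the share of all genes. PKMYT1, a kinase that holds CDK1 inactive, and CHEK1, the checkpoint kinase of unreplicated DNA, rose by 2.01 and 1.57, and the phosphatase gene CDC14A had a difference of -1.22 (adjusted p = 6.1e-11). Of 13 genes of MuvB, DREAM and B-MYB, 6 were higher and 1 lower (median 0.10). MYBL2 (B-MYB) rose by 1.55, from 7.50 ± 0.473 to 22.1 ± 1.30 CPM, and was at 15.2 ± 1.64 CPM in KDR. MYBL1 (A-MYB) and RBL1 (p107) rose by 1.63 and 0.92. The 1 gene of the 13 called lower, beside 18.2% of all genes tested, was RBL2 (p130), with a difference of -0.21 (adjusted p = 0.0058). A further 6 of the 13 were not called. Over the 115 genes, KDR had 57 lower and 5 higher than KD2 (median -0.26; all genes tested: 17.1% lower, 15.3% higher), and KD1 had none called against NT.

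**Figure D5:**
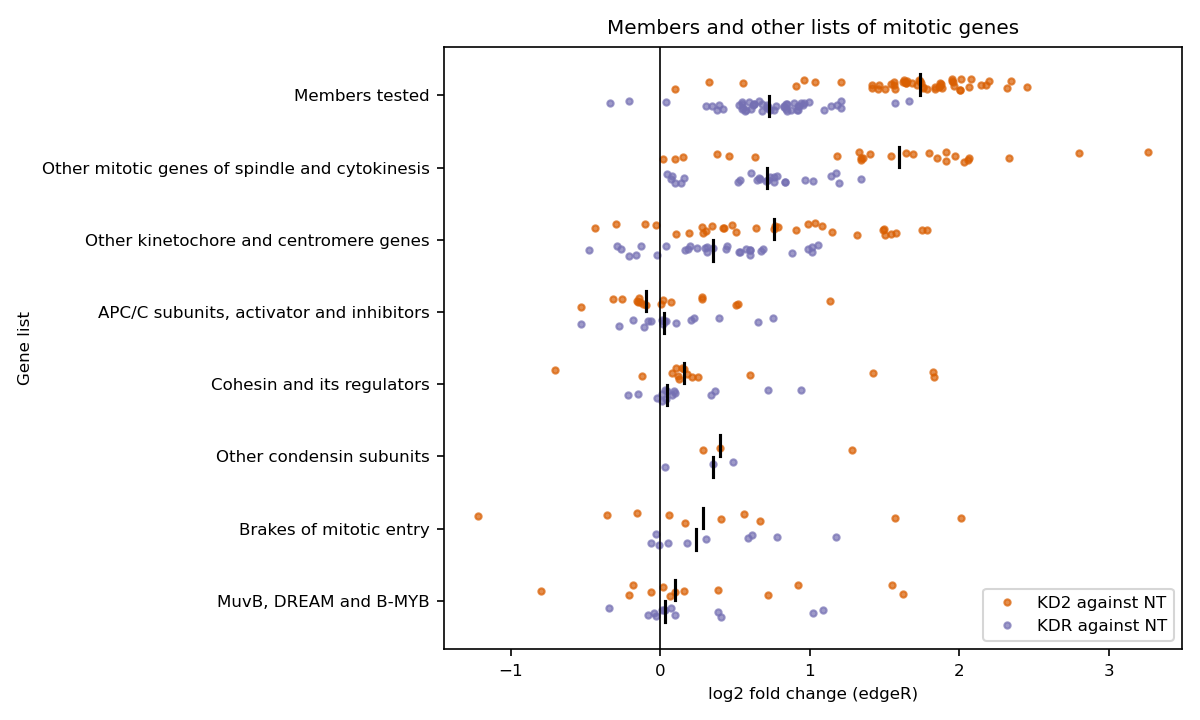
Log2 fold change (x axis) of single genes (points) in KD2 against NT (orange) and KDR against NT (purple) for the 52 tested mitosis and G2/M genes and 7 lists of further mitotic genes (y axis); black strokes are medians. The KD2 medians are 1.74 for the mitosis and G2/M genes, 1.596 for further spindle genes, 0.76 for further kinetochore genes and -0.10 for the APC/C.

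Over the 12 libraries, TOP2A was the gene closest to the mean of the others (Pearson r = 0.998 on log2 CPM), and CDC25B (r = 0.219), PRC1 (0.626), KIF18A (0.628) and BUB3 (0.795) were the farthest. These correlations describe 12 libraries in 4 groups and carry no p, since libraries of a group share its level. Outside the 53 genes, among the 10904 whose mean was 5 CPM or more, the 5 most like their mean were MMP7, SP6, SOX9, PPP1R1B and ADGRF5 (r from 0.994 to 0.997). MMP7, a secreted matrix protease, was at 20.9, 23.0 and 24.3 CPM in NT, 22.7, 21.8 and 24.2 in KD1, 442, 411 and 432 in KD2 and 91.8, 96.3 and 90.2 in KDR. SOX9, a transcription factor of epithelial progenitors, was at 44.1, 40.9 and 43.4 CPM in NT, 43.1, 43.0 and 46.9 in KD1, 80.5, 81.3 and 77.4 in KD2 and 58.9, 56.4 and 59.5 in KDR. SP6, a transcription factor of the SP family, had means of 17.9, 18.0, 60.3 and 30.6 CPM in NT, KD1, KD2 and KDR. In all 5 genes KD2 was highest and KDR next, an order that follows from choosing them by likeness to that mean.

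The size of the difference between KD2 and NT was also set beside the promoter motifs. Its median was 1.72 in 25 genes with both a CCAAT box and a CHR, 1.69 in 6 with a CCAAT box alone, 1.71 in 8 with a CHR alone and 1.70 in 4 with neither. Those last 4 held both CDC25B, the smallest difference of all, and KIF2C (1.96). KIF18A (0.56) and SPC25 (2.46) were the lowest and the highest of the genes with both motifs.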

How the data were processed

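The authors deposited 1 table of raw counts per gene and library. Per the file headers, featureCounts 1.6.4 summed reads over the exons of each gene, using Ensembl release 111 (GRCh38); the recorded command sets no strandedness, pair or multi-mapping option, so the ends of a pair were counted singly. The submitters' processing notes also name FastQC, cutadapt and HISAT2, with versions not given in the sources used here.

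From these counts, genes were kept with filterByExpr by group (19373 of 63241), scaled by TMM and tested in edgeR 4.0.16 (R 4.3.3) with 1 quasi-likelihood model of all 12 libraries fitted by group alone. Genes were called at a Benjamini-Hochberg adjusted p under 0.05 over all genes tested. CPM are TMM-scaled and TPM use the exon length in the tables. Lists are described by counts and medians beside all genes tested, with no test of their own. With 3 libraries a group, simulated data of KD2 against NT (18761 genes) gave calls for 84% of 2-fold and 70% of 1.5-fold changes. Only 100 genes were changed by each fold, all with a mean of at least 1 CPM. In the real comparison 17.8% of genes were called higher and 18.2% lower, so these rates are not its power. No 2 libraries held the same values (0 of 66 pairs). Promoters are RefSeq windows, credited to GRCh38.p14 and searched for exact letters.

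The genes, lists and tests were chosen with earlier results of these data known. Genes with all values printed are 6 always given, the largest and smallest difference between KD2 and NT in each role, those not called in it, and those that kept most or least of it in KDR. In each further list the 3 with the smallest adjusted p are named, and RBL2 is named beside them. Alternatives were DESeq2 1.42.0, its size factors in edgeR, no filter on low counts, fits restricted to the groups compared, a replicate block, a threshold of 0.01 and leaving out each library. Single values of some marker genes are not reported here.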

Additional observations from a re-analysis of the deposited data

How the results depend on the processing

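All counts of called genes stayed within 1.5 times the value given under every alternative run: 49 to 51 for KD2 against NT, 50 to 51 for KDR against KD2, 43 to 47 for KDR against NT (both directions), 49 to 51 for KD2 against KD1 and 0 for KD1 against NT. Leaving out each library in turn gave medians of 1.72 to 1.84 for KD2 against NT, 1.70 to 1.77 for KD2 against KD1, -1.01 to -0.95 for KDR against KD2, 0.72 to 0.77 for KDR against NT and -0.02 to 0.03 for KD1 against NT; no other alternative moved a median by more than the spread between replicates. With the replicate number as a block the counts were 50 in KD2 against NT, 51 in KDR against KD2, 47 in KDR against NT, 50 in KD2 against KD1 and 0 in KD1 against NT. These numbers give no pairing: the residuals of same-numbered libraries correlated over 0.1 in 0 of 18 pairs (range -0.02 to 0.04).

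Of 1316 values for the 24 genes printed in full, 1298 kept their call, 15 lost it, 3 gained it and 0 changed direction. The changes were in AURKA, DLGAP5 and CENPA (KDR against NT), CDC25B and KIF18A (KD2 against NT or KD1), and SPC25 and HJURP (KDR against KD2). CENPA was called higher in KDR than in NT without NT replicate 2 (0.56, adjusted p = 0.044), and CDC25B higher in KD2 than in KD1 in a fit of only those groups (0.18, adjusted p = 0.029; edgeR). PRC1 (2 to 23 counts per library) has too few counts for a narrow interval, and NUSAP1 (0 to 9) was not tested.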
